A study of Homo sapiens with 4 samples.

Results

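AP-1 is a dimeric transcription factor, and GATA3 binding was described here around 10 human genes for its subunits. They were JUN, JUNB and JUND (the JUN subfamily), FOS, FOSB, FOSL1 and FOSL2 (the FOS subfamily), and BATF, BATF3 and ATF3 (called ATF-like here). The genes were taken from a list of AP-1 subunits, 10 of the 20033 protein-coding genes of the annotation. BATF2, JDP2 and ATF2 were not in that list and were counted among the dimer partners. H1 cells, an established human embryonic stem cell (hESC) line, were kept in mTeSR1 medium, given BMP4 at 50 ng/ml for 6 h, and used for chromatin immunoprecipitation and sequencing (ChIP-seq) with an antibody against GATA3. The series held 2 GATA3 ChIP replicates and 2 input chromatin samples, all 4 from BMP4-treated H1 cells, and the peak list of each ChIP replicate was analysed. A GATA3 ChIP of untreated cells was not analysed here, so nothing below is a response to BMP4, and a single line of cells stands for hESCs. Peak lists hold no expression values, so the identity of the cells was not checked against marker genes. For each gene, the positions of both lists were collected within 100 kb of its 5′ end in hg38, inside its body, or carrying its name in the authors' gene column. A position of 1 replicate within 100 bp of a position of the other was called shared, and linked positions form a shared region, located by the mean of its positions. By this rule 24 positions of replicate 1 and 12 of replicate 2 lay near the 10 genes, and they gave 11 of the 9145 shared regions on the chromosomes.

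The subunits of AP-1 share a basic region that contacts DNA and a leucine zipper through which they pair. JUN proteins pair with each other or with FOS proteins, whereas FOS proteins need a partner such as JUN to bind DNA. BATF proteins and ATF3 have the same type of domain and pair with JUN proteins, and BATF proteins have no transactivation domain of their own. JUN, JUNB, FOS, FOSB and ATF3 are immediate-early genes, transcribed within minutes of a growth factor or stress signal through mitogen-activated protein (MAP) kinases. GATA proteins recognise GATA with A or T before it and A or G after it, written WGATAR.

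The sequences of 5 shared regions and of 1 unshared position are printed as examples that the results below describe. They are the shared region of FOS, FOSL2 and JUN nearest to the 5′ end, the 2 regions nearest to the canonical ATF3 start, and the position nearest to the FOS 5′ end. Each is 200 bases of the hg38 plus strand, read 5′ to 3′ around the centre, with every WGATAR match on either strand in capitals (a match on the minus strand appears as its complement, such as CTATCT).
FOS, 1.54 kb upstream, chr14:75277188-75277387: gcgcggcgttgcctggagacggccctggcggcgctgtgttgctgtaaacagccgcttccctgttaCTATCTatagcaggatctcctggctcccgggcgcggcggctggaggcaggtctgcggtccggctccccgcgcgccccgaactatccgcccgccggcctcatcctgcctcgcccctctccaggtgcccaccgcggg
FOS, 0.387 kb upstream, unshared, chr14:75278339-75278538: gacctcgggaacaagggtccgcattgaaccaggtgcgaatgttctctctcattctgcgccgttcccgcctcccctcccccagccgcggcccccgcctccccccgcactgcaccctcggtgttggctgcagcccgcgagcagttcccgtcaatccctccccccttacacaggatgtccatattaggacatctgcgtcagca
FOSL2, 25.6 kb upstream, chr2:28366777-28366976: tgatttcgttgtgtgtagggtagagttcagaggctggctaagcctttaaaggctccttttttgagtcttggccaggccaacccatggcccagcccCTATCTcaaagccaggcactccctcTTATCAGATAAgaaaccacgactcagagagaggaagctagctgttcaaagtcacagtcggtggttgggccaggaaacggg
ATF3, 3.28 kb upstream of the canonical start, chr1:212605383-212605582: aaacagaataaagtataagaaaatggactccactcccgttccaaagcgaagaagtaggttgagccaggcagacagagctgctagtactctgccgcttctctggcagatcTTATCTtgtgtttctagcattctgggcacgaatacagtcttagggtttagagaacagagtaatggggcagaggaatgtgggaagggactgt
ATF3, 2.27 kb upstream of the canonical start, chr1:212606391-212606590: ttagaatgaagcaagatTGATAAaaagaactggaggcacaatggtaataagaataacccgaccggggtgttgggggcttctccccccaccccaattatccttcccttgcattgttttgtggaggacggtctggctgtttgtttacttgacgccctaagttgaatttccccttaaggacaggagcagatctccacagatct
JUN, 31.2 kb upstream, chr1:58815159-58815358: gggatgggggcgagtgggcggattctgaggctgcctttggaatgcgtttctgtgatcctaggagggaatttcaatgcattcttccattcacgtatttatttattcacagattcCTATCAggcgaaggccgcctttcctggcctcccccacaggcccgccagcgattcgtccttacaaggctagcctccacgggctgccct

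Shared regions were found near 7 of the 10 genes. FOS and ATF3 had 3 each, JUN and BATF3 had 2, JUNB, JUND and FOSL2 had 1, and FOSB, FOSL1 and BATF had 0. Among all protein-coding genes 47.7% had at least 1 shared region by the same rule, and 5.94% had at least 3. Both regions of BATF3 were also regions of ATF3, its neighbour on chromosome 1, so the 13 pairs of a gene and a region come from 11 distinct regions. In the separate lists, all 10 genes had a position of replicate 1, against 68.7% of protein-coding genes, and 8 had one of replicate 2, against 57.3%. FOSL1 and BATF were the genes without a position of replicate 2. These counts are descriptions of a chosen list and carry no test.

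**Figure D1:**
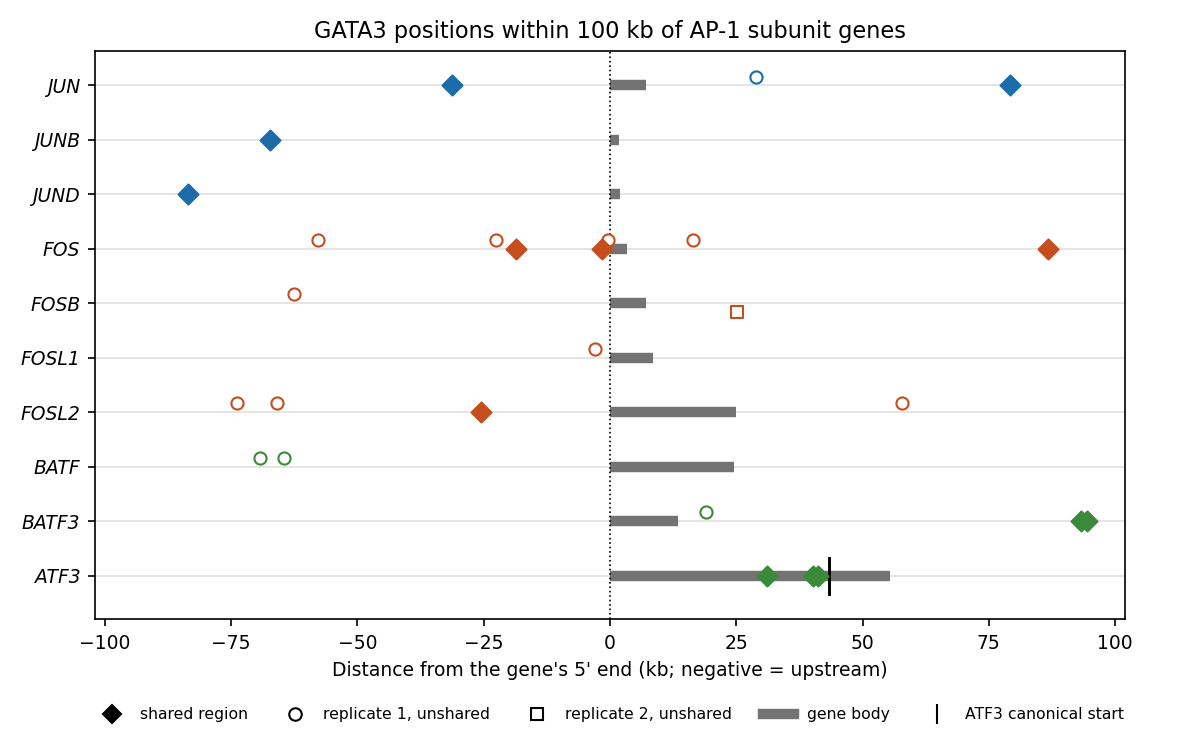
Distance in kb of each GATA3 position from the 5′ end of 10 AP-1 subunit genes, with gene bodies as grey bars, shared regions as filled diamonds, and unshared positions of replicate 1 (circles) and replicate 2 (square) as open symbols. FOS has a shared region 1.54 kb upstream, and 2 of the 3 ATF3 regions lie just before the canonical start, the vertical mark 43.4 kb into the gene.

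FOS encodes the founding member of its subfamily, and its locus held the most positions. FOS (ENSG00000170345.10) occupies bases 75278826 to 75282230 of chromosome 14 in hg38, plus strand, with 0 other protein-coding 5′ ends within 100 kb. Replicate 1 had 7 positions near it and replicate 2 had 3, each of which was shared. The nearest shared region, at 75277282 in replicate 1 and 75277293 in replicate 2, lay between genes, 1.54 kb upstream of the 5′ end. For 3.07% of protein-coding genes such a region lay nearer to the 5′ end. Its printed sequence was rich in G and C (71.5%, the highest of the 11 regions) and held a single WGATAR match, CTATCT at 75277253 to 75277258, 32 bp from the centre.

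The other regions of FOS were more distant. The one 18.7 kb upstream (75260099 and 75260160, 61 bp apart) lay in introns of long non-coding RNA genes and held 1 WGATAR match. The one 86.8 kb downstream (75365541 and 75365631) held 3, a number reached by 8.73% of the other shared regions. That region was named by the authors for JDP2, which encodes a repressor that pairs with JUN proteins, and lay 62.1 kb upstream of the JDP2 5′ end. Its replicate positions were 90 bp apart, the pair nearest to the limit of 100 bp. Where positions had to be within 50 bp, FOS kept 1 of its 3 regions, the one 1.54 kb upstream.

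Replicate 1 alone had 4 more positions near FOS, at 57.8, 22.5 and 0.387 kb upstream and 16.4 kb downstream. The one 0.387 kb upstream (75278439) had its closest counterpart in replicate 2 at 1146 bp, the smallest gap of any unshared position near the 10 genes. No WGATAR match was in its 200 bp. Near the 3′ end of the printed sequence stood CCATATTAGG (75278514 to 75278523), a match to the CArG box, the sequence bound by serum response factor (SRF) in the well-studied serum response element of FOS. CArG matches were in the windows of 1.65% of the positions of replicate 1 away from the 10 genes. This motif was looked for after the sequences had been read, and the match says nothing of which protein was bound.

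The other FOS subfamily genes had 1 shared region between them. FOSL2 (ENSG00000075426.12), which encodes FRA2, occupies bases 28392448 to 28417317 of chromosome 2, plus strand. Its region lay between genes, 25.6 kb upstream, at 28366854 in replicate 1 and 28366899 in replicate 2, and the authors named both positions for FOSL2. It held 3 WGATAR matches within 28 bp of the centre. A pair of them faced each other on opposite strands and overlapped by 1 base, giving TTATCAGATAA at 28366897 to 28366907. Such an opposed pair was in 1 of the 11 regions and in 19 (0.208%) of the 9134 other shared regions. A CArG match, CCTTTAAAGG at 28366819 to 28366828, was in the same window. Both features were noticed in the sequence and then counted. Replicate 1 had a further 3 positions near FOSL2, at 73.9 and 66.0 kb upstream, in intron 11 of BABAM2, and at 57.8 kb downstream.

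FOSL1 (ENSG00000175592.9) encodes FRA1 and lies on the minus strand of chromosome 11, bases 65892049 to 65900573. It had 1 position, of replicate 1, at 65903597, 3.02 kb upstream of the 5′ end and named for FOSL1 by the authors. The window held 1 WGATAR match. Replicate 2 had 0 positions within 100 kb, and its nearest was 215995 bp from that of replicate 1. FOSB (ENSG00000125740.15; chromosome 19, bases 45467995 to 45475179, plus strand) had a single position in each list, at different places. That of replicate 1 was 62.6 kb upstream, 0.969 kb from the 5′ end of PPP1R13L, and that of replicate 2 was 25.1 kb downstream, in intron 5 of RTN2. The nearest shared regions were 214 kb from FOSB and 219 kb from FOSL1, farther than for any other of the 10 genes.

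The 3 JUN genes all had a shared region, at distances of 31.2 kb or more. JUN (ENSG00000177606.9) encodes a main partner of FOS proteins and lies on the minus strand of chromosome 1, bases 58776845 to 58784048. The region 31.2 kb upstream (58815262 and 58815256) was in intron 1 of the long non-coding RNA gene LINC01135, and JUN had the nearest protein-coding 5′ end. Its WGATAR match, CTATCA, was 15.5 bp from the centre. The second region was 79.2 kb downstream of the 5′ end, where that of MYSM1 was nearer, at 4.75 kb. A position of replicate 1 alone, 29.0 kb downstream at 58755024, held 3 WGATAR matches and was the only one near JUN that the authors named for it.

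JUNB (ENSG00000171223.6, bases 12791486 to 12793315, plus strand) and JUND (ENSG00000130522.6, bases 18279694 to 18281622, minus strand) lie in parts of chromosome 19 dense in genes, with 14 and 9 other protein-coding 5′ ends within 100 kb. Each had 1 position per replicate, and in both cases the pair was shared. The JUNB region (12724200 and 12724196) was 67.3 kb upstream, and only 0.187 kb from the 5′ end of TNPO2. The JUND region (18365087 and 18365113) was 83.5 kb upstream of JUND, in the 3′ UTR of exon 5 of PGPEP1, and 9.63 kb from the 5′ end of GDF15, for which the authors named it. These regions therefore counted for JUNB and JUND by distance, while other genes were nearer.

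ATF3, a gene induced by many forms of stress, is the ATF-like member with regions close to a transcription start. ATF3 (ENSG00000162772.18) occupies bases 212565334 to 212620777 of chromosome 1, plus strand. Of its 10 annotated transcripts 2 start at that 5′ end, while the canonical one starts 43.4 kb downstream at 212608761. Each replicate had 3 positions near ATF3, and the 3 pairs were shared, with 0 unshared positions left. The regions were at 31.0, 40.1 and 41.2 kb from the 5′ end, in intron 1 of the long transcripts. Measured from the canonical start, the same regions were 12.5, 3.28 and 2.27 kb upstream. Measured from the 5′ end, 18.9% of protein-coding genes had a nearer one than ATF3, and from the canonical start 3.95%. The authors named the positions for FAM71A, listed as GARIN4 in the annotation, whose 5′ end was nearer than that of ATF3 but not nearer than the canonical ATF3 start.

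The ATF3 regions differed in where their WGATAR matches stood. The region 3.28 kb upstream of the canonical start (212605495 and 212605470) held TTATCT 12 bp from its centre. The one 2.27 kb upstream (212606496.5 and 212606485.5) held TGATAA 80.5 bp away, the most distant nearest match of the 11 regions. The one 12.5 kb upstream (212596306 and 212596287) held 2 WGATAR matches, 1 of them 5 bp from the centre, and the only AP-1 motif of the 11, TGAATCA, 58.5 bp from the centre.

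BATF3 and BATF had no shared region that was not also near ATF3. BATF3 (ENSG00000123685.9), a factor known from dendritic cells, is encoded on the minus strand of chromosome 1, bases 212686417 to 212699840. It reached the 2 regions near the canonical ATF3 start at 94.4 and 93.3 kb, inside the limit, while the third ATF3 region fell outside it at 104 kb. Its own position, of replicate 1 alone, was 19.0 kb downstream of the 5′ end at 212680801 and held 3 WGATAR matches and 1 AP-1 motif. BATF (ENSG00000156127.8; chromosome 14, bases 75522455 to 75546993, plus strand), known from T and B cells, had 2 positions of replicate 1, at -69.3 and -64.6 kb from its 5′ end and both in intron 2 of JDP2. The nearest shared region to BATF was 156 kb away. Across the 10 genes, the nearest shared region was a median of 75.4 kb from the 5′ end, between 1.54 and 219 kb, against a median of 118 kb (quartiles 44.8 and 248 kb) for all protein-coding genes.

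**Figure D2:**
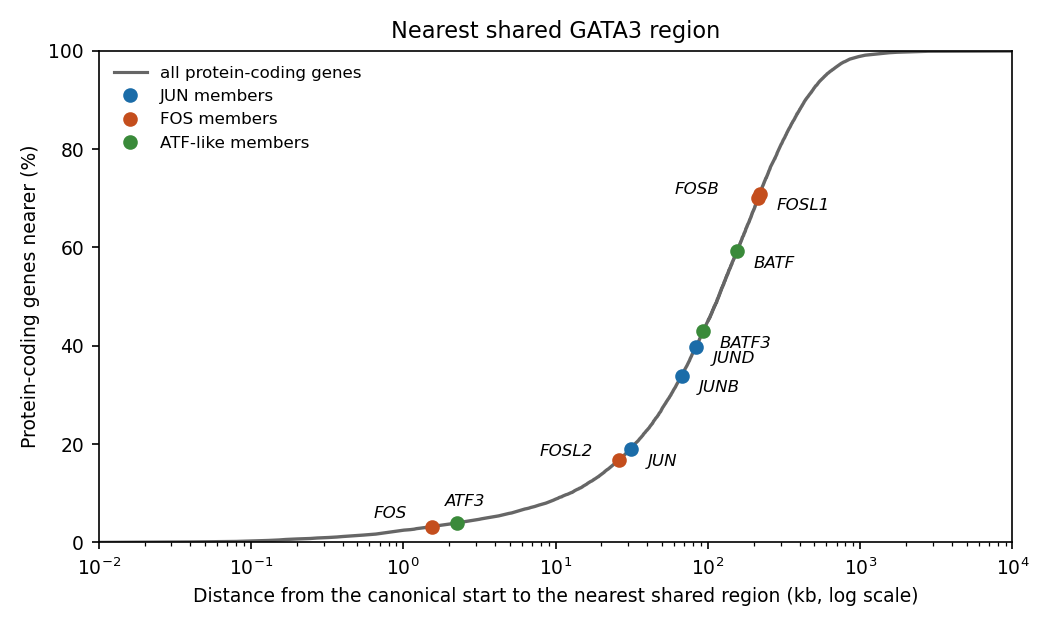
Percent of protein-coding genes that have a shared region nearer to their canonical start (vertical axis) against that distance in kb (log scale), as a line for all 20033 genes and as points for the 10 AP-1 subunit genes, coloured by subfamily. FOS (3.21%) and ATF3 (3.95%) lie at the low end, and FOSB and FOSL1 at about 70.0% and 70.9%.

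How many of the genes had a region depended on the distance allowed. Within 50 kb of the 5′ end or in the gene body, 4 of the 10 had one (JUN, FOS, FOSL2 and ATF3), against 32.3% of protein-coding genes. Within 10 kb or in the body, 2 had one, FOS and ATF3, against 19.0% of protein-coding genes, and the same 2 did with distances from the canonical start, against 18.7%. The 2 of 10 is close to these backgrounds. Measured from the 5′ end, ATF3 was counted only by regions in its body, farther than 10 kb. Of the 11 regions, 4 had a member as the gene with the nearest protein-coding 5′ end: 2 of FOS and 1 each of JUN and FOSL2. With canonical starts in place of 5′ ends the number was 7, since the 3 ATF3 regions were added. The authors' gene names gave a member to 2 of the regions, 1 of FOS and 1 of FOSL2.

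The sequence under the regions was then compared with that of the other shared regions, since the rule used no sequence. WGATAR was within the 200 bp of 11 of the 11 regions (100%, 95% Wilson interval 74.1 to 100), against 82.0% of the 9134 others, which lies inside that interval. The nearest match was a median of 15.5 bp from the centre, against 18.0 bp. The AP-1 motif TGANTCA was in 1 of 11 regions, against 8.87% of the others. The cAMP response element TGACGTCA, bound by ATF and CREB proteins, was in 0 of 11 and in 0.0876% of the others, and the octamer ATGCAAAT in 0 of 11 and in 5.09%. The TEAD motif GGAATG was in 3 of 11 regions (27.3%, interval 9.75 to 56.6) against 18.8%, the SMAD motif GTCTG in 4 of 11 (36.4%) against 36.1%, and the SOX motif ACAANGG in 1 of 11 against 15.8%. Each share of the others was inside the interval of the 11 regions, so no difference was detectable with this number of regions. Motifs were searched on both strands, intervals cover counting error only, and a match is not a bound site.

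**Figure D3:**
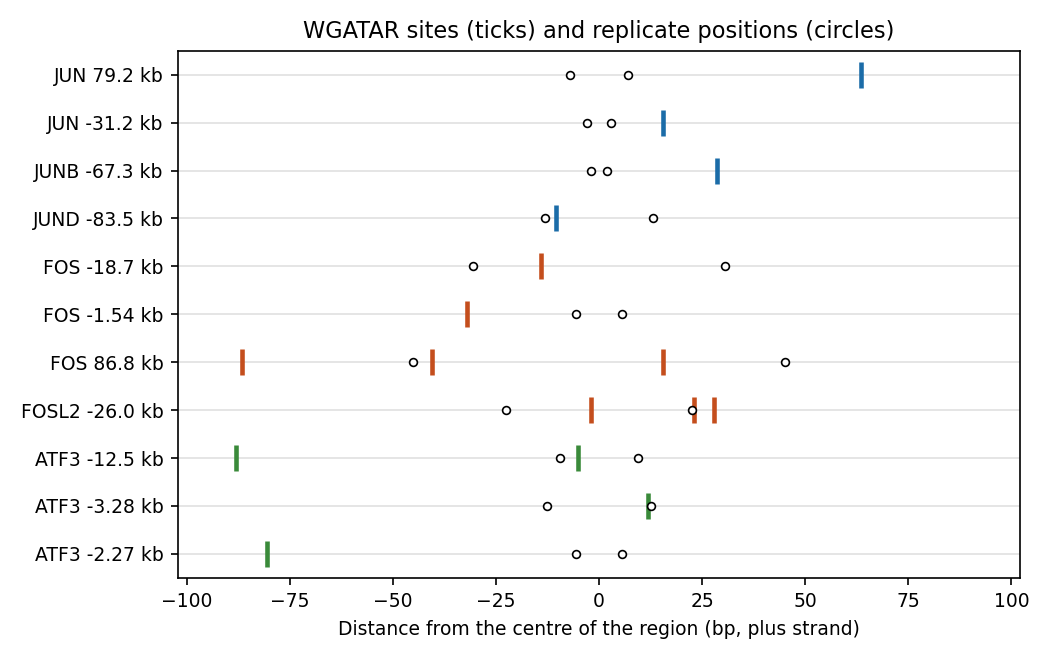
WGATAR matches (ticks) and the positions of the 2 replicates (open circles) around the centre of each of the 11 shared regions, in bp along the plus strand. Rows are named by gene and by distance from the canonical start in kb. The match nearest to the centre lies 2 to 80.5 bp from it, and FOSL2 and the FOS region at 86.8 kb have 3 each.

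Shared and unshared positions near the genes were compared for WGATAR within each list. In replicate 1, 11 of 11 shared positions held a match and 8 of 13 unshared ones did (61.5%, two-sided Fisher's exact p 0.0411). In 100 bp windows the difference did not pass the threshold (28.0 percentage points, Fisher's exact p 0.211). Replicate 2 had 1 unshared position, near FOSB, which held a match, so the test could not detect a difference there (Fisher's exact p 1.00). The 5 unshared positions without a match comprised 3 near FOS, 1 near FOSB and 1 near BATF. Positions of 1 locus are not independent, which Fisher's exact test does not take into account, and these p-values were not adjusted.

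Finally the subfamilies were compared for how often a position in 1 replicate was found in the other. In replicate 1 this was 4 of 5 positions near JUN genes (80.0%, 95% Wilson interval 37.6 to 96.4), 4 of 13 near FOS genes (30.8%, 12.7 to 57.6) and 3 of 6 near ATF-like genes (50.0%, 18.8 to 81.2). In replicate 2 the counts were 4 of 4, 4 of 5 and 3 of 3. Two-sided Fisher's exact tests were adjusted by Benjamini-Hochberg over the 3 pairs, with a threshold of 0.05. In replicate 1 no pair of subfamilies passed, and the lowest adjusted p was 0.353 (JUN against FOS, 49.2 percentage points). Replicate 2 had 1 unshared position near the genes, so the tests could not detect a difference there (Fisher's exact adjusted p 1.00). The JUN against FOS difference fell to 7.10 points when positions within 50 kb or in the gene body were used. Positions of 1 locus are not independent, and counts this small leave wide intervals. Over all 10 genes, 45.8% of the positions of replicate 1 were shared (interval 27.9 to 64.9) against 49.6% of its other positions, and 91.7% of those of replicate 2 (64.6 to 98.5) against 71.5%. Both background shares were inside the intervals.

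**Figure D4:**
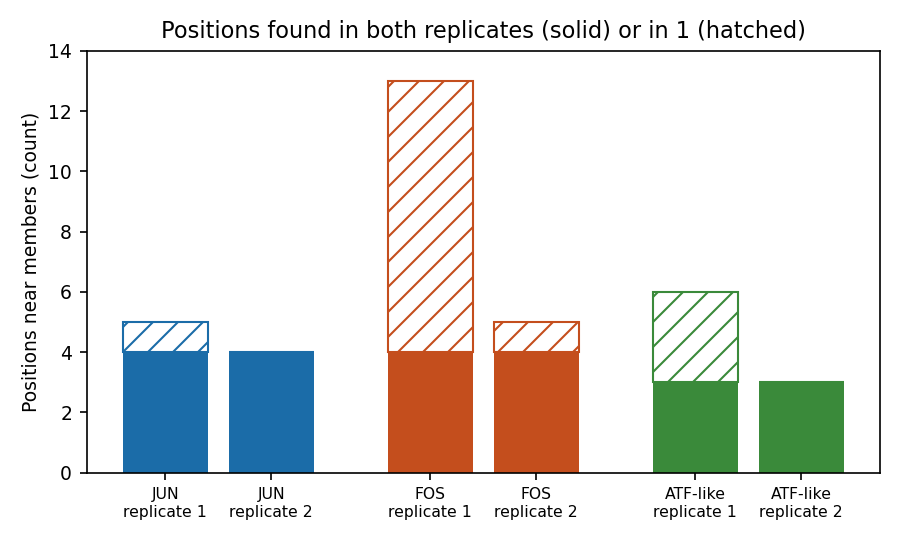
Number of GATA3 positions near JUN, FOS and ATF-like genes in each replicate, split into positions found in both replicates (solid) and in 1 (hatched). Shared counts are 3 or 4 in every subfamily, and 9 of the 13 positions near FOS genes in replicate 1 are unshared.

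Genes that act with AP-1 were counted by the same rule, from lists chosen with earlier results of these data known. MAP kinase phosphatases, which switch off the kinases upstream of AP-1, had a shared region in 7 of 9 genes (77.8%), beside the background of 47.7%. DUSP5 had 4, DUSP4 3, and DUSP2 and DUSP10 2 each, and the nearest regions of DUSP4, DUSP2 and DUSP5 were 1.52, 1.74 and 1.79 kb from the 5′ end. MAP kinases and their activators had one in 8 of 12, led by MAPK8, which encodes the JUN kinase JNK1, with 3. Dimer partners and other bZIP genes had one in 8 of 18 (44.4%), with 3 each at BACH1, BACH2 and CREB5, and the region nearest to ATF6 was 0.0270 kb from its 5′ end. SRF and the factors that work with it had one in 3 of 6. MRTFA had 2 and SRF itself had 1, at 78.4 kb. Of the other immediate-early genes 4 of 9 had one. IER5 had 2, the nearer 1.13 kb downstream of its 5′ end, whereas EGR1, EGR2 and EGR3 had 0. The EGR genes were picked out after their values were seen. These lists are given as counts with no test.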

How the data were processed

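GATA3 was mapped by ChIP-seq in BMP4-treated H1 hESCs, and the peak lists of 2 replicates were used. Per the methods of the study, cutadapt trimming by the authors was followed by bowtie alignment to hg38. Picard duplicates, multiply mapped reads and ENCODE blacklisted regions were dropped. MACS2 then called peaks replicate by replicate, each with the matching input as control. The deposited files give 1 position per peak and a gene name, with no width, height or score, so binding strength could not be compared. They give no read depth, and a depth for each replicate is not given in the sources used here. Whether these lists are exactly the peak calls that the methods describe was not established. How a peak became 1 position, and whether bases count from 0 or 1, is not given in the sources used here, so coordinates are uncertain by at least 1 bp. Positions on chromosomes 1 to 22, X and Y numbered 18456 and 12782.

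Genes, 5′ ends and canonical transcripts were taken from GENCODE release 44 and bases from an hg38 FASTA. A gene was scored by positions within 100 kb of its 5′ end, in its body or carrying its name, and replicate positions within 100 bp were shared. All protein-coding genes were counted in the same way, where an authors' gene name alone added 42 genes. Windows of 200 bp were searched for 7 motifs. Fisher's exact tests were two-sided with a threshold of 0.05. The AP-1 genes and the related lists were chosen with earlier results of these data known. All 10 AP-1 genes are named, and of each related list up to 4 genes with the most shared regions, nearer regions first. The EGR genes are named in addition to these. The linking of positions was tested on simulated positions, and Fisher's exact test on simulated tables of independent counts. Those tables did not have the sizes of the real ones or positions clustered at a locus. Python 3.11.15, numpy 2.4.6, scipy 1.17.1, pandas 2.3.3, pysam 0.24.0 and statsmodels 0.14.6 were used.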

Additional observations from a re-analysis of the deposited data

How the results depend on the processing

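The number of AP-1 genes with a shared region stayed at 7 when the distance between replicate positions was 50, 250 or 500 bp, and the number of regions was 9, 11 and 11 against 11. The distance from the gene mattered more. Within 50 kb or in the gene body there were 4 genes (against 32.3% of all protein-coding genes) and 7 regions. Within 10 kb or in the gene body there were 2 genes and 4 regions, from the 5′ end as from the canonical start. At 10 kb from the 5′ end the 3 ATF3 regions entered only by the gene body, being 31.0 to 41.2 kb away. From the canonical start the one 12.5 kb away did so too. Where the member had to have the nearest 5′ end there were 3 genes and 4 regions, and with canonical starts 4 genes and 7 regions. With 1 replicate left out, the genes ran from 8 to 10 and the positions from 12 to 24. The WGATAR difference between shared and unshared positions of replicate 1 was 38.5 percentage points and was weaker in 100 bp windows (28.0, Fisher's exact p 0.211). The difference between JUN and ATF-like genes in replicate 1, 30.0 percentage points and not past the threshold, reversed to -25.0 within 50 kb (Fisher's exact adjusted p 1.00). In all, 26 alternative values gave the same call or a count within 1.5 times. Of the rest, 11 counts moved further, 1 difference was weaker and 1 reversed. The 26 include counts given above and the tests of replicate 2. Those tests had 1 unshared position and could not have passed the threshold. The same call does not mean the same size. The JUN against FOS difference in replicate 1, 49.2 percentage points, was 7.10 within 50 kb and passed the threshold in neither setting. The alternatives with canonical starts were chosen after seeing the data. No paired analysis was possible because both peak lists come from the same group and the inputs were not analysed here. The depth of each replicate is not given in the sources used here, and a position missing from 1 list may have been just under its calling threshold, which was not tested.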
